A study of Mus musculus with 10 samples.

Results

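The sarcomeric myosin heavy chain isoforms were examined as a family of 7 genes, *Myh1*, *Myh2*, *Myh3*, *Myh4*, *Myh7*, *Myh7b* and *Myh8*, chosen by name from 25700 genes with counts in regenerating mouse muscle. All 7 passed the filter on low counts, as did 14410 genes in total. Tibialis anterior (TA) muscle was taken on day 6 after an intramuscular injection of cardiotoxin (CTX), a venom toxin that destroys fibers and starts regeneration, and mRNA from whole muscle was sequenced. The 10 mice were C57BL/6 males aged 12 weeks, 5 titled Pax7Cre and 5 titled miR-501KO, and the comparison asks how deletion of the miRNA changes the regenerating muscle. Both groups carried the Cre knock-in at *Pax7*, a gene of muscle stem cells, although the labels give the Pax7Cre genotype as wild type. The miR-501KO mice, labelled miR-501 -/-, are Pax7CremiR-501fl/Y by the design text, in which a floxed miR-501 on the X chromosome is removed. This Cre is not inducible and acts in the whole myogenic lineage, so the deletion is older than the injury and other cells of the muscle keep the miRNA. The targeted miRNA itself was not analysed here, and group membership rests on the labels.

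Myosin heavy chain is the motor of the thick filament, and its isoform sets how fast a fiber shortens and how much ATP it uses. New fibers begin with the embryonic and perinatal isoforms and replace them with adult ones as they mature. In the mouse TA the adult set is dominated by fast isoforms, with the slow isoform confined to few fibers.

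Total counts lay between 18609222 in Pax7Cre mouse 3 and 24753258 in miR-501KO mouse 1. Some libraries stood apart from the rest of their genotype. On the first principal component of log2 CPM (counts scaled to the normalized library size), Pax7Cre mouse 2 scored 43.92 and Pax7Cre mouse 4 scored -27.52, while the other 3 Pax7Cre mice lay between -8.97 and -2.85. Among the miR-501KO mice, mouse 4 scored 16.87 and the others lay between -5.44 and -1.40. The same mice were extreme for mature fiber genes outside the sarcomere, a list of 18 led by the creatine kinase gene *Ckm*. These genes summed to 25242, 46331, 21888, 17116 and 28260 CPM in Pax7Cre mice 1 to 5, and to 25677, 26019, 28547, 35272 and 30313 CPM in miR-501KO mice 1 to 5. No gene of this list was at 0 in all mice, and 14 of the 18 were higher and 4 lower in miR-501KO, none at an adjusted p under 0.05. Without Pax7Cre mouse 2 all 18 were higher, and without Pax7Cre mouse 4 it was 4 higher and 14 lower. Whole muscle was sequenced, so fewer cells of a type and less RNA per cell cannot be told apart. The part of fiber content, which was not measured, in the isoform values below was not tested.

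The 7 isoforms together took 0.872% to 1.53% of all counts in a mouse. The lowest share belonged to Pax7Cre mouse 1, with a 95% Wilson interval of 0.868% to 0.876% that covers counting error only. Their summed level was 11451 ± 3684 CPM in Pax7Cre (SD, n = 5) and 12266 ± 1434 CPM in miR-501KO (SD, n = 5), and the genotypes overlapped.

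Levels were compared between genes as CPM per kilobase of the longest coding transcript. On this scale the median over the 10 mice was 735 for *Myh4*, 669 for *Myh1*, 222 for *Myh8*, 199 for *Myh3*, 18.5 for *Myh2*, 0.473 for *Myh7* and 0.157 for *Myh7b*. The order *Myh4*, *Myh1*, *Myh8*, *Myh3*, *Myh2*, *Myh7*, *Myh7b* held in 8 of 10 mice. In miR-501KO mouse 3 *Myh1* exceeded *Myh4*, and in miR-501KO mouse 4 *Myh7* and *Myh7b* had the same count, 35, so that their order there comes from the transcript lengths alone. Neighbours in this order were compared within each mouse. The log2 ratio of *Myh4* to *Myh1* was 0.51 ± 0.16 in Pax7Cre (SD, n = 5), with *Myh4* higher in all 5 mice, and 0.14 ± 0.12 in miR-501KO (SD, n = 5), with *Myh4* higher in 4 of 5. *Myh3* was below *Myh8* in all 10 mice, with a log2 ratio to it of -0.36 ± 0.29 in Pax7Cre and -0.25 ± 0.26 in miR-501KO (SD, n = 5 each), so in miR-501KO this pair did not differ beyond its spread. The log2 ratio of *Myh7* to *Myh7b* was 1.69 ± 1.05 in Pax7Cre and 1.71 ± 1.10 in miR-501KO (SD, n = 5 each). The order rests on the length used. Per length of the merged exons, *Myh3* was above *Myh8* in all 10 mice, with log2 ratios of 0.57 ± 0.29 and 0.68 ± 0.26 (SD, n = 5 each), *Myh4* was above *Myh1* in all 10, and 8 of 10 mice had the order *Myh4*, *Myh1*, *Myh3*, *Myh8*, *Myh2*, *Myh7*, *Myh7b*. The ratio of *Myh7* to *Myh7b* was then 1.32 ± 1.05 and 1.35 ± 1.10 on the log2 scale (SD, n = 5 each).

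**Figure D1:**
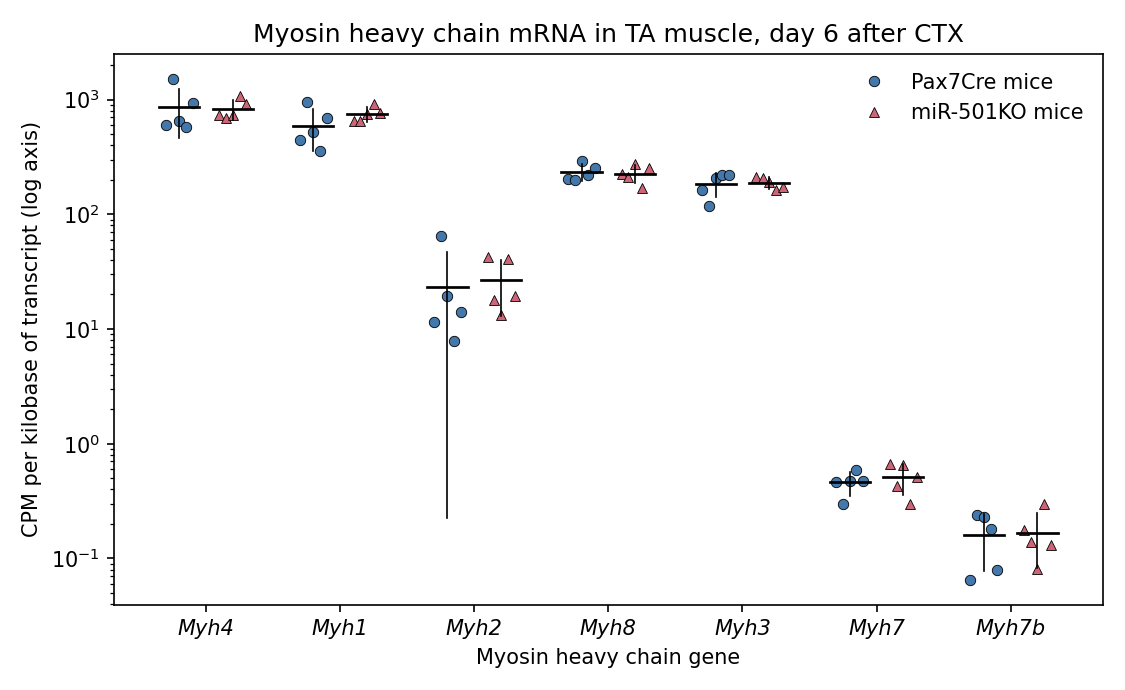
CPM per kilobase of transcript on a log axis for the 7 isoforms, with a circle for each Pax7Cre mouse and a triangle for each miR-501KO mouse (5 each). Horizontal lines are means and vertical lines 1 SD, and the genotypes overlap for every isoform while *Myh2*, *Myh7* and *Myh7b* sit far below the other 4.

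Between the genotypes, 0 of the 7 isoforms reached an adjusted p under 0.05 in edgeR's quasi-likelihood test, where the share called among all 14410 genes was 0%. At an unadjusted p under 0.05, 0 of the 7 were called in either direction, beside 0.382% of all genes higher and 0.666% lower in miR-501KO. Without Pax7Cre mouse 2 this changed, and *Myh1* and *Myh2*, 2 of the 7, were called higher at that threshold, beside 1.84% of all genes higher and 1.28% lower. DESeq2 likewise called 0 genes at an adjusted p under 0.05, with 52 higher and 98 lower at an unadjusted p under 0.05, against 55 and 96 by edgeR. Without Pax7Cre mouse 2 edgeR gave 267 and 186, without Pax7Cre mouse 4 228 and 242, and with libraries scaled to the mature fiber genes 9 and 73. None of the 7 isoforms had levels without overlap between the genotypes, a pattern that 0.139% of all genes showed.

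The developmental isoforms come first in a new fiber. *Myh3* encodes embryonic myosin heavy chain, which marks fibers formed a few days before. It measured 982, 715, 1240, 1338 and 1319 CPM in Pax7Cre mice 1 to 5, and 1271, 1255, 1155, 976 and 1044 CPM in miR-501KO mice 1 to 5. The lowest value was that of Pax7Cre mouse 2 and the highest that of Pax7Cre mouse 4, so the miR-501KO range lay inside the Pax7Cre range. The log2 fold change, miR-501KO over Pax7Cre, was 0.028 with a standard error of 0.17 (exact two-sided permutation p = 0.897). It became -0.099 with a standard error of 0.12 without Pax7Cre mouse 2.

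*Myh8* encodes the perinatal isoform, which follows the embryonic one. Its level was 1255, 1227, 1792, 1365 and 1546 CPM in Pax7Cre mice 1 to 5, and 1368, 1311, 1690, 1044 and 1549 CPM in miR-501KO mice 1 to 5. The mouse with the lowest value was miR-501KO mouse 4 and that with the highest was Pax7Cre mouse 3, with all other values overlapping. The log2 fold change was -0.045 with a standard error of 0.15 (exact two-sided permutation p = 0.786), and 0.048 without Pax7Cre mouse 3 or 0.042 without miR-501KO mouse 4.

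The adult fast isoforms made up most of the family. *Myh4* encodes the IIB isoform of the fastest fibers of the TA. It stood at 3628, 9094, 3901, 3468 and 5623 CPM in Pax7Cre mice 1 to 5, and at 4445, 4161, 4404, 6522 and 5518 CPM in miR-501KO mice 1 to 5. Pax7Cre mouse 2 was the highest by far and Pax7Cre mouse 4 the lowest, and miR-501KO mouse 4 was the highest of its genotype. The log2 fold change was -0.038 with a standard error of 0.26 (exact two-sided permutation p = 0.944). Without Pax7Cre mouse 2 it was 0.27 with a standard error of 0.18.

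*Myh1* encodes the IIX isoform, found in fast fibers of intermediate endurance. Its level was 2681, 5827, 3176, 2169 and 4180 CPM in Pax7Cre mice 1 to 5, and 3954, 3959, 4575, 5619 and 4679 CPM in miR-501KO mice 1 to 5. Pax7Cre mice 1, 3 and 4 lay below every miR-501KO mouse, while Pax7Cre mouse 2 lay above them all. The log2 fold change was 0.34 with a standard error of 0.24 (exact two-sided permutation p = 0.214). Without Pax7Cre mouse 2 it was 0.58 with a standard error of 0.19, and without Pax7Cre mouse 4 it was 0.20 with a standard error of 0.22, each at an adjusted p above 0.05 by edgeR, although the former was under 0.05 before adjustment.

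*Myh2* encodes the IIA isoform of fast oxidative fibers, scarce in the TA. It gave 69.3, 390, 118, 48.3 and 85.7 CPM in Pax7Cre mice 1 to 5, and 256, 108, 80.8, 246 and 119 CPM in miR-501KO mice 1 to 5. One Pax7Cre mouse, mouse 2, had more than any other animal, and miR-501KO mice 1 and 4 were above all remaining mice. Its log2 fold change was 0.19, with 0.52 as the standard error (exact two-sided permutation p = 0.786). Leaving out Pax7Cre mouse 2 raised it to 1.01 with a standard error of 0.34 (adjusted p = 0.999 by edgeR, under 0.05 before adjustment), and leaving out Pax7Cre mouse 4, miR-501KO mouse 1 or miR-501KO mouse 4 gave -0.033, -0.039 and -0.0068.

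The slow and ancestral isoforms had few counts. *Myh7* encodes the slow isoform shared with the heart, and had 64, 35, 56, 92 and 60 counts in Pax7Cre mice 1 to 5 and 104, 56, 98, 35 and 76 counts in miR-501KO mice 1 to 5. These correspond to 1.85 to 3.69 CPM and 1.85 to 4.16 CPM. Pax7Cre mouse 2 and miR-501KO mouse 4 shared the lowest count, and the genotypes overlapped, with a log2 fold change of 0.16 and a standard error of 0.23 (exact two-sided permutation p = 0.484). It fell to 0.042 without Pax7Cre mouse 2 and rose to 0.30 without miR-501KO mouse 4.

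*Myh7b*, an ancient relative whose gene also hosts a miRNA, had 9, 28, 27, 28 and 10 counts in Pax7Cre mice 1 to 5 and 27, 18, 12, 35 and 19 counts in miR-501KO mice 1 to 5. The lowest count, 9, carries an exact 95% Poisson interval of 4.12 to 17.1 counts. Both genotypes held mice with low and high counts and overlapped. The log2 fold change was 0.040 with a standard error of 0.41 (exact two-sided permutation p = 0.881). It turned to -0.27 without miR-501KO mouse 4, -0.16 without Pax7Cre mouse 1 and -0.13 without Pax7Cre mouse 5, and rose to 0.22 without Pax7Cre mouse 2.

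**Figure D2:**
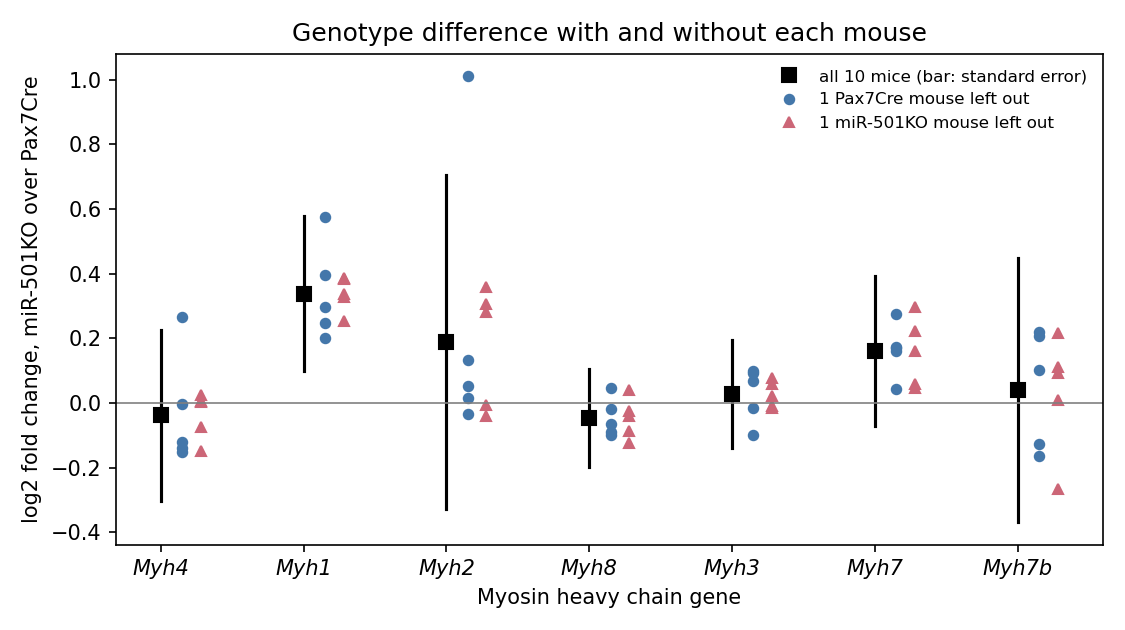
Log2 fold change of each isoform, miR-501KO over Pax7Cre, from all 10 mice (squares, bars 1 standard error) and with 1 Pax7Cre mouse (circles) or 1 miR-501KO mouse (triangles) left out. *Myh2* moves most, from 0.19 to 1.01 without Pax7Cre mouse 2, and *Myh1* stays above 0 in every fit shown.

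Each isoform was then expressed as a share of the 7, with counts divided by transcript length. *Myh4* held 43.95% ± 5.49 in Pax7Cre and 40.8% ± 3.37 in miR-501KO (SD, n = 5 each). *Myh8* held 13.3% ± 4.06 and 11.4% ± 2.53, and *Myh3* 10.8% ± 4.29 and 9.53% ± 2.08, in the same order. Per length of the merged exons the mean *Myh8* share in Pax7Cre was 7.59%. *Myh2* held 1.09% ± 0.684 and 1.31% ± 0.652. All of these shares overlapped between the genotypes, and *Myh7* and *Myh7b* never exceeded 0.0428% and 0.0137%.

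*Myh1* was the exception. Its share was 31.0%, 33.6%, 30.9%, 25.7% and 32.6% in Pax7Cre mice 1 to 5, and 34.9%, 36.5%, 38.3%, 38.8% and 36.1% in miR-501KO mice 1 to 5. Every miR-501KO mouse was above every Pax7Cre mouse, with means of 36.9% ± 1.62 and 30.8% ± 3.03 (SD, n = 5 each), a difference of 6.14 percentage points. This was 1 of 7 shares, beside 0.00694% of all 14410 genes that were higher without overlap and 0.0625% that were lower when each was divided by the summed isoforms. *Myh1* was that 1 higher gene. It is itself part of the summed isoforms, whereas a gene outside them takes on the spread of that sum. These percentages are therefore not a chance rate for the *Myh1* share. The difference was 6.84 points without Pax7Cre mouse 2, 4.88 points without Pax7Cre mouse 4 and 5.66 points without miR-501KO mouse 4. With counts not divided by length it was 6.16 points.

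The ratio of *Myh4* to *Myh1* per length shows the same difference between the 2 main adult isoforms. It was 1.37, 1.58, 1.24, 1.62 and 1.36 in Pax7Cre mice 1 to 5, and 1.14, 1.06, 0.973, 1.17 and 1.19 in miR-501KO mice 1 to 5. Every Pax7Cre mouse was above every miR-501KO mouse. The 2 highest ratios were those of Pax7Cre mice 2 and 4, which lay at opposite ends of the summed mature fiber genes. The part of fiber content in this ratio was not tested. Of the 21 pairs of isoforms, *Myh4* and *Myh1* were the 1 pair whose ratio did not overlap. When each of 14409 genes was divided by *Myh4*, 0.0139% were higher in miR-501KO without overlap and 0% were lower. A gene that does not follow *Myh4* takes on its spread in such a ratio, whereas *Myh1* had r = 0.859 with it over the 10 mice. These percentages are therefore not a chance rate for the ratio of *Myh4* to *Myh1*. The 2 higher genes were *Myh1* and *Igha*, an immunoglobulin heavy chain gene named here after its values were seen. The ratio was likewise singled out after the levels were seen, and no p is given for it or for any share. Reads that match more than 1 isoform could add to either gene, since 2.22% of the 100-base windows of the *Myh1* transcript also occur in *Myh4*.

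**Figure D3:**
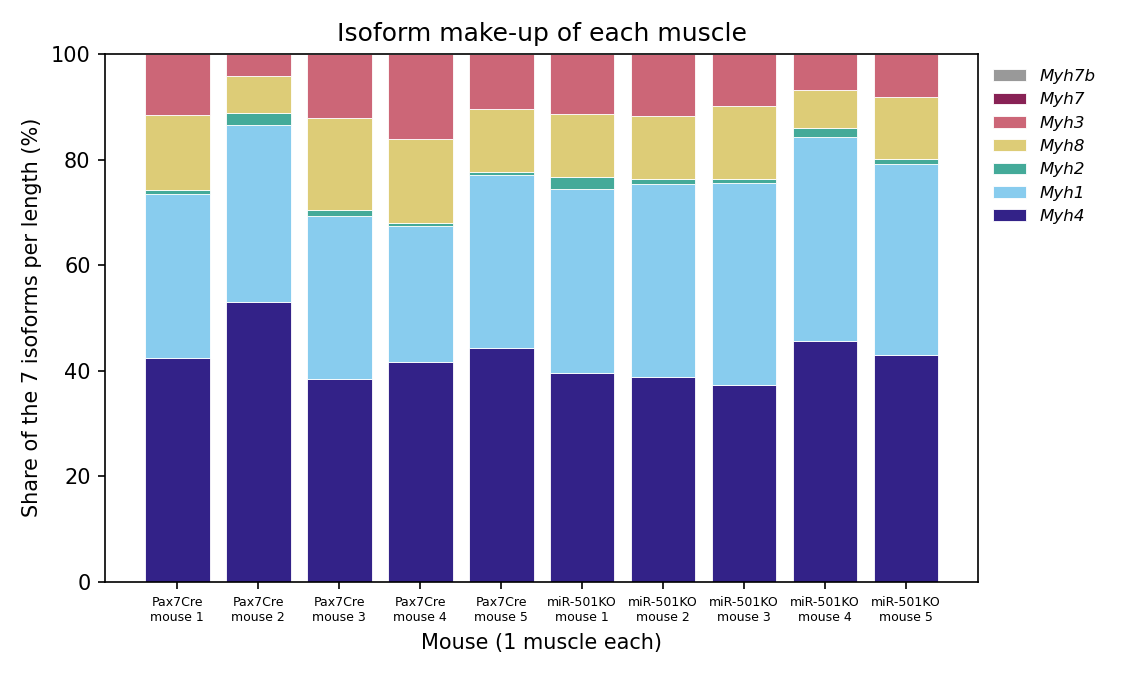
Share of each isoform in the summed counts per length of the 7, in percent, with 1 bar for each of the 10 mice. *Myh1* takes 25.7% to 33.6% in the Pax7Cre mice and 34.9% to 38.8% in the miR-501KO mice, while the developmental pair *Myh3* and *Myh8* is smallest in Pax7Cre mouse 2 and miR-501KO mouse 4.

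The balance of adult to developmental isoforms differed widely between mice of 1 genotype. The summed *Myh1*, *Myh2* and *Myh4* exceeded the summed *Myh3* and *Myh8*, per length, 2.88-fold, 7.97-fold, 2.39-fold, 2.12-fold and 3.48-fold in Pax7Cre mice 1 to 5. In miR-501KO mice 1 to 5 the ratio was 3.30, 3.23, 3.21, 6.18 and 4.02. Pax7Cre mouse 2 and miR-501KO mouse 4 were highest and the Pax7Cre mice 4 and 3 lowest, so the genotypes overlapped. On the log2 scale the means were 1.73 ± 0.76 and 1.95 ± 0.40 (SD, n = 5 each), a difference of 0.21. This difference was 0.53 without Pax7Cre mouse 2 and 0.044 without miR-501KO mouse 4.

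The isoforms also differed in their spread within a genotype, taken as the pooled SD of log2 CPM. It was 0.97 for *Myh2*, 0.71 for *Myh7b*, 0.46 for *Myh4*, 0.42 for *Myh1*, 0.41 for *Myh7*, 0.30 for *Myh3* and 0.25 for *Myh8*, beside a median of 0.19 over all genes tested. *Myh2* was more variable than 99.6% of the genes tested, whereas *Myh8* exceeded 68.1%. For 5 of the isoforms the SD was larger in Pax7Cre, by 2.66 times for *Myh1* and 2.15 times for *Myh4*, while *Myh7* and *Myh8* were the exceptions. The SD was larger in Pax7Cre for 79.2% of all genes tested. Without Pax7Cre mouse 2 the SD ratio fell to 1.91 for *Myh1*, 1.16 for *Myh4* and 1.24 for *Myh3*. That of *Myh2* turned from 1.54 to 0.723 and that of *Myh7* fell from 0.749 to 0.352. In that fit 69.6% of all genes had the larger SD in Pax7Cre. The order of the isoforms by spread also rests on this mouse. Without it the SD in Pax7Cre fell from 1.15 to 0.54 for *Myh2* and from 0.59 to 0.32 for *Myh4*. For *Myh3* it fell from 0.38 to 0.21, while *Myh7b* stayed at 0.79. *Myh3* was then less variable than *Myh8* in both genotypes, at 0.21 and 0.17 against 0.22 and 0.27. Without miR-501KO mouse 4 all 7 isoforms had the larger SD in Pax7Cre, beside 80.3% of all genes. The ratio was then 4.25 for *Myh1*, 3.27 for *Myh4* and 1.91 for *Myh7b*.

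Patterns across the 10 mice were compared by Pearson's r of log2 CPM, as a description over libraries that differ in the summed mature fiber genes given above. The genes most like *Myh4* among 14409 others were *Slc8a3* (r = 0.986), *Atp6v0e2* (r = 0.986) and *Pmpca* (r = 0.983). For *Myh1* they were *Unkl* (r = 0.965), the fast fiber actinin gene *Actn3* (r = 0.948) and *Aimp2* (r = 0.947). *Fgf1* (r = 0.965), *Pcp4l1* (r = 0.960) and *Dbt* (r = 0.958) were nearest to *Myh2*. The adult fast isoforms were positively correlated with each other, with r = 0.859 for *Myh1* and *Myh4*, 0.755 for *Myh1* and *Myh2* and 0.769 for *Myh2* and *Myh4*. With *Myh3* they ran the other way, at -0.545 for *Myh1*, -0.609 for *Myh2* and -0.730 for *Myh4*. With *Myh8* the values were -0.220, -0.423 and -0.370 in the same order. Pax7Cre mouse 2 had the lowest *Myh3* and the highest *Myh1*, *Myh2* and *Myh4* of the 10 mice. No r was taken without that mouse, so how far these correlations rest on it is not known. *Myh3* and *Myh8* had r = 0.489, *Myh3* and *Myh7* 0.704, and *Myh4* and *Myh7* -0.694. *Myh4* ranked 127 among the genes most like *Myh1*, and *Myh1* ranked 512 among those most like *Myh4*.

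For *Myh3* the nearest were *Iffo2* (r = 0.969), *Recql4* (r = 0.966) and *Supt20* (r = 0.965), and for *Myh8* *Csad* (r = 0.968), *Thbs4* (r = 0.957) and *Abi3bp* (r = 0.946). The scarce *Myh7* was nearest to *Dcx* (r = 0.925), *Pml* (r = 0.901) and *Cpne1* (r = 0.892), and *Myh7b* to *Efhd1* (r = 0.879), *Ephx1* (r = 0.852) and *Atg9b* (r = 0.843). No isoform was among the 3 genes nearest to another.

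Genes that work with the myosins gave the setting. Of the 7 myosin light chains all passed the filter, 4 higher and 3 lower in miR-501KO, none at an unadjusted p under 0.05, with a median log2 fold change of 0.0094 beside -0.0042 over all genes tested. That median was 0.17 without Pax7Cre mouse 2 and -0.13, with 2 higher and 5 lower, without Pax7Cre mouse 4. The fast regulatory chain gene *Mylpf* stood at 14457 and 14839 CPM in Pax7Cre and miR-501KO, and the embryonic chain gene *Myl4* at 1362 and 1300 CPM. Of 17 genes for thick filament partners and myosin folding, 16 passed, 8 higher and 8 lower, with a median of 0.00055. This became 12 higher and 4 lower (median 0.15) without Pax7Cre mouse 2, and 5 higher and 11 lower (median -0.049) without Pax7Cre mouse 4. *Mybph*, which encodes a myosin binding protein, was 1 of these 16 at an unadjusted p under 0.05, beside 0.382% of all genes higher and 0.666% lower. It had 143, 132, 163, 182 and 169 CPM in Pax7Cre mice 1 to 5 and 197, 207, 154, 197 and 184 CPM in miR-501KO mice 1 to 5. All miR-501KO mice except mouse 3 lay above every Pax7Cre mouse, with a log2 fold change of 0.25 and a standard error of 0.11 (exact two-sided permutation p = 0.0476, adjusted p = 1.00 by edgeR). The call was lost in 6 of the 10 fits with 1 mouse left out. *Unc45b*, which encodes a chaperone that folds the myosin head, was at 174 and 171 CPM.

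Of 38 regulators of fiber type and myosin genes, 37 passed, 17 higher and 20 lower, with a median log2 fold change of -0.027. It was 9 higher and 28 lower (median -0.068) without Pax7Cre mouse 1, and 21 higher and 16 lower (median 0.025) without Pax7Cre mouse 5. *Hdac9*, a repressor of MEF2 factors, was 1 of these 37 at an unadjusted p under 0.05, beside 0.382% of all genes higher and 0.666% lower, with a log2 fold change of 0.28 and a standard error of 0.11 (exact two-sided permutation p = 0.0317, adjusted p = 1.00 by edgeR). Its level was 8.87, 9.87, 8.72, 10.9 and 9.75 CPM in Pax7Cre mice 1 to 5, and 12.6, 13.4, 9.74, 11.3 and 11.2 CPM in miR-501KO mice 1 to 5. miR-501KO mouse 3 lay within the Pax7Cre range and the other 4 above it, and the call was lost in 3 of the 10 fits with 1 mouse left out. The lowest value among the regulators was that of *Esrrb*, at -0.40 with a standard error of 0.38. This rests on Pax7Cre mouse 2, with 2.95 CPM, where the other Pax7Cre mice had 0.74 to 1.42 CPM. Without that mouse no regulator was below -0.12. *Mef2c* and *Myog*, activators of muscle genes, had log2 fold changes of 0.047 and 0.092.

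Of the other 7 class II myosin heavy chains, 5 passed, 3 higher and 2 lower. The nonmuscle gene *Myh9* led them, with 448 and 458 CPM. The cardiac gene *Myh6* did not pass, with 0 to 17 counts, nor did *Myh15*, with 0 to 6 counts.

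Marker lists of the other cells of the muscle were counted in the same way. The labelled tissue showed its markers, as given above for mature fibers. The 12 genes of new fibers and differentiation were 8 higher and 4 lower, led by *Actc1*, but 1 higher and 11 lower without Pax7Cre mouse 2, and the 8 slow fiber genes 5 higher and 3 lower, led by *Tnni1*. Of the satellite cell genes 5 of 6 passed, 3 higher and 2 lower, led by *Cd34*, and their sum was 370 ± 30.5 and 350 ± 19.9 CPM (SD, n = 5 each). Most of that sum came from the 2 lower genes, *Cd34* (220 and 207 CPM) and *Vcam1* (82.2 and 74.1 CPM). The 3 higher genes included *Pax7* (22.2 and 23.0 CPM). The 9 macrophage genes were 6 higher and 3 lower, led by *Lyz2*, but 1 higher and 8 lower without Pax7Cre mouse 2 or without Pax7Cre mouse 3, with sums of 6805 ± 824 and 6809 ± 527 CPM (SD, n = 5 each). The 6 matrix genes, led by *Col3a1*, were 1 higher and 5 lower, with a median log2 fold change of -0.056 that ranged from -0.14 to 0.011 with 1 mouse left out. The 5 endothelial genes, led by *Cdh5*, were 1 higher and 4 lower (median -0.058, range -0.11 to 0.014). The 5 smooth muscle genes, led by *Acta2*, were 3 higher and 2 lower (median 0.10, range 0.039 to 0.13), and so were the 5 Schwann cell genes, led by *Mbp* (median 0.027, range -0.079 to 0.069). The 5 red blood cell genes, led by *Hbb-bs*, were all higher, with a median of 0.75 that fell to 0.021 without miR-501KO mouse 2. Their sums were 66.9, 150, 180, 55.5 and 74.1 CPM in Pax7Cre mice 1 to 5 and 138, 400, 144, 71.7 and 68.7 CPM in miR-501KO mice 1 to 5. miR-501KO mouse 2 was far above the others, without which the mean sums were 105 and 106 CPM in Pax7Cre and miR-501KO. With 1 mouse left out, the median changed sign for 12 of the 14 lists of genes other than the isoforms, all but the smooth muscle and red blood cell genes. The groups overlapped in the red blood cell sums, and no gene of these marker lists reached an unadjusted p under 0.05.

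The genes differ in position and sequence. In GENCODE M21 for GRCm38, 5 of the isoforms lie in a row on the plus strand of chromosome 11, *Myh3* from 67078300 to 67102291, *Myh2* from 67171027 to 67197517, *Myh1* from 67200052 to 67224575, *Myh4* from 67238029 to 67260446 and *Myh8* from 67277124 to 67308634. *Myh7* lies on chromosome 14 from 54970684 to 54994626 on the minus strand, and *Myh7b* on chromosome 2 from 155611212 to 155634307 on the plus strand. The neighbours *Myh1* and *Myh4*, whose ratio differed, share 90.3% of aligned coding bases, and *Myh1* and *Myh2* share 91.1%. *Myh7b* is the most distant, sharing 71.1% with *Myh1*.

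This likeness bears on the counts. Of the 100-base windows of each transcript, 9.73% for *Myh1*, 9.17% for *Myh2*, 6.61% for *Myh8*, 3.85% for *Myh4* and 1.15% for *Myh3* also occur in another gene, and 11.2% for *Myh7* occur in *Myh6*. *Myh7b* shares none. Antisense genes that are not among those counted overlap exonic bases of 3 isoforms. *Myhas* overlaps 515 bases of *Myh1*, and *9430073C21Rik* overlaps 237 bases of *Myh2*. *Myh7*, with its few counts, is overlapped by *Gm31251* at 523 bases, *Mhrt* at 484 and *Gm29015* at 142, and *Myh7b* shares 37 bases with the counted gene *Trpc4ap* on the other strand. The libraries were stranded, but the strand setting of the counting is not given in the sources used here. Whether reads from an antisense partner were counted for the isoform is therefore unknown.

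The mature miRNA is shown with the site its seed would pair with. RefSeq (GRCm38.p6) places miR-501-3p at chrX:7241270-7241291 on the minus strand, with the seed, bases 2 to 8, in capitals.
miR-501-3p: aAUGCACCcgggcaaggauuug
The site complementary to the seed, GGTGCAT, is absent from the annotated 3′ untranslated regions of all 7 isoforms. Among 20968 genes with such a region, 1360 (6.49%) hold it. The longest such region has 106 to 216 bases in each isoform except *Myh8*, where it has 1645. The 6.49% is over regions of any length and is not matched to these.

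The promoters of *Myh1*, *Myh4* and *Myh8* are shown because they share a 10-base element. All 7 isoforms matched a RefSeq entry (GRCm38.p6). Both strands were searched for TATAAA, the E-box CANNTG, the CArG box and the MEF2 element in windows of 300 bases around each start. The stretches end at the base before the RefSeq start, on the plus strand, with all matches except E-boxes in capitals.
Myh1, chr11:67199882-67200101: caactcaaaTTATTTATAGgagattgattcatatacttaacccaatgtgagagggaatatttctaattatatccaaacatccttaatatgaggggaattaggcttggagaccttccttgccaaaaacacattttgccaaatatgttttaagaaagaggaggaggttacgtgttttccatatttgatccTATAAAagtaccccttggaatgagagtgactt
Myh4, chr11:67237592-67237811: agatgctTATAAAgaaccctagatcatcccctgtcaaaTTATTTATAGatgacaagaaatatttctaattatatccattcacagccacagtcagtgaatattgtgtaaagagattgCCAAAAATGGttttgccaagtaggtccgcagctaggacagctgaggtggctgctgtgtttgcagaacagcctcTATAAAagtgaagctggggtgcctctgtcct
Myh8, chr11:67276904-67277123: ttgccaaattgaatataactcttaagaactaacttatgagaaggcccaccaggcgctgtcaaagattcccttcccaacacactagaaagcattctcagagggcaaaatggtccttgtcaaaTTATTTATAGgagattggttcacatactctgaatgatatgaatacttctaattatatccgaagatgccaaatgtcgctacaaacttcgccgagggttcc
The same MEF2 element, TTATTTATAG, lies at -211 to -202 in *Myh1*, -182 to -173 in *Myh4* and -99 to -90 in *Myh8*, and each overlaps a TATAAA match on the minus strand. On the plus strand a TATAAA match begins at -32 in *Myh1* and at -213 and -31 in *Myh4*. Among the promoters not shown, it begins at -29 in *Myh3* and at 10, past the start, in *Myh2*. Of the promoters shown, *Myh4* alone holds a CArG box, CCAAAAATGG at -104 to -95. Among 32851 windows of this length, 3.19% hold a MEF2 element, 13.6% TATAAA, 1.63% a CArG box and 72.3% an E-box. These matches are a description of letters and do not show binding.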

How the data were processed

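TA muscle mRNA from 10 mice was sequenced on an Illumina NovaSeq after stranded TruSeq library preparation. The files the authors deposited hold whole counts per gene that were not normalized. Their processing notes name STAR, featureCounts, R 3.5.1 and the build GRCm38.p5, while the strand setting and the handling of reads matching several genes are not given in the sources used here. Identifiers were matched to GENCODE M21 (25664 of 25700).

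Normalization by TMM, CPM and tests used edgeR 4.0.16 under R 4.3.3. Its filterByExpr kept 14410 genes (minimum count 10, total 15), and the quasi-likelihood test compared genotypes with Benjamini-Hochberg adjustment over all of them. DESeq2 1.42.0 was an alternative. The steps were tested on simulated data. For single genes CPM was compared by a two-sided exact permutation test, with a smallest possible p of 0.00794. Shares, ratios and correlations have no test. Groups came from the labels, which number mice 1 to 5 without calling them pairs.

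The members and lists were chosen with earlier results of these data known. Named genes are the 7 isoforms, defining, most abundant, most changed or nominally called genes of the lists, and the 3 genes most like each isoform, of which 1 list gene is not reported here. Alternatives covered scaling, filter, test, a replicate block, length and leaving out each mouse. Merged exon length was added after seeing the data.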

Additional observations from a re-analysis of the deposited data

Results flagged for a closer look

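Each genotype was searched for a mouse whose gap to its nearest neighbour was more than 0.71 of the range of its 5 mice (Dixon's 95% value), in 68 sets of 5 values covering levels and shares of the 7 isoforms, their sum, the adult to developmental ratio with and without log2, and the sums of all 17 gene lists. Chance alone gives about 1 set in 20, or 3.4 of 68, and 6 were found. The sets share mice and genes and are not independent.

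*Myh2* in Pax7Cre mouse 2 stood at 390 CPM, while the other 4 Pax7Cre mice lay between 48.3 and 118 CPM. The summed new fiber and differentiation genes in miR-501KO mouse 4 stood at 5237 CPM, while the other 4 miR-501KO mice lay between 6431 and 6868 CPM. The ratio of adult to developmental isoforms stood at 7.97 in Pax7Cre mouse 2, with the others between 2.12 and 3.48, and at 6.18 in miR-501KO mouse 4, with the others between 3.21 and 4.02, but neither passed on the log2 scale. Both mice stand apart from their genotype on the first principal component, and the part of this in these values was not tested. The summed smooth muscle genes in miR-501KO mouse 1 stood at 1390.5 CPM, while the other 4 lay between 1143 and 1203 CPM. The summed red blood cell genes in miR-501KO mouse 2 stood at 400.4 CPM, while the other 4 lay between 68.7 and 144 CPM.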

How the results depend on the processing

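No isoform passed an adjusted p under 0.05 under any alternative run. At an unadjusted p under 0.05, *Myh1* and *Myh2* were called without Pax7Cre mouse 2 and no isoform in any other fit, and *Myh1* stayed above 0 in all of them. Scaling to the mature fiber genes moved the median log2 fold change of all genes to -0.21, and *Myh3* to -0.24, *Myh7* to -0.087, *Myh7b* to -0.15, *Myh8* to -0.26, *Myh4* to -0.11 and *Myh1* to 0.26, while *Myh2* rose to 0.31. With each mouse left out, the log2 fold change ranged from 0.20 to 0.58 for *Myh1*, -0.039 to 1.01 for *Myh2*, -0.099 to 0.10 for *Myh3*, -0.15 to 0.27 for *Myh4*, 0.042 to 0.30 for *Myh7*, -0.27 to 0.22 for *Myh7b* and -0.12 to 0.048 for *Myh8*. The cause was not tested. With at least 10 counts required in every mouse, *Myh7b* had no value.

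Genes at an unadjusted p under 0.05 numbered 55 higher and 96 lower. They were 9 higher with mature fiber scaling, 36 with at least 10 counts in every mouse, and 153 higher and 159 lower with no filter, where 19854 genes were tested. Leaving out each mouse gave 39 to 267 higher and 59 to 242 lower, the most without Pax7Cre mouse 2 (267 and 186) or Pax7Cre mouse 4 (228 and 242).

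Under the replicate block, 87 genes were higher and 102 lower, and *Myh4* turned to 0.052. *Myh2* moved from 0.19 to 0.48, *Myh3* from 0.028 to 0.056 and *Myh7b* from 0.040 to 0.085, with no call changed. The labels give the mice of both genotypes the same numbers and no shared origin. Deviations of same-numbered mice correlated at 0.34, -0.15, 0.16, -0.30 and 0.20, and 3 of the 5 Pax7Cre mice correlated best with their own number, where 1 is expected by chance. The numbers were not used as pairs, and the data do not settle it.

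Over the mice left out, the *Myh1* share difference ranged from 4.88 to 6.84 points and the adult to developmental difference from 0.044 to 0.53. The mean *Myh8* share in Pax7Cre fell from 13.3% to 7.59% per merged exon length, and the log2 ratio of *Myh3* to *Myh8* turned from -0.36 to 0.57 in Pax7Cre and from -0.25 to 0.68 in miR-501KO. Relative counting error is largest for *Myh7b* and *Myh7*, with at most 35 and 104 counts in a mouse.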
